A study of Homo sapiens with 6 samples.

Results

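WNT7B and 9 further genes of the WNT pathway were followed through RNA sequencing of MDA-MB-231 cells, out of 17064 genes in the deposited table. They are the ligands WNT5A, WNT5B, WNT7B and WNT9A, the receptors FZD2 and FZD7, the antagonists DKK1 and DKK3, and the feedback targets AXIN2 and LEF1. The genes were chosen by name from the pathway with earlier results of these libraries known, and WNT7B was selected on its lower level in both DKO libraries, so its difference between DKO and vector is given as a description with no test. MDA-MB-231 is a human triple-negative breast cancer line derived from a metastatic site. The study disrupted CDC42BPA, which encodes the kinase MRCKα, and CDC42BPB, which encodes MRCKβ, both effectors of the small GTPase CDC42 that act on the actomyosin cytoskeleton. There were 2 libraries of cells transduced with the vector alone (vector 1 and vector 2, separate transductions), 1 of MRCKα KO, 1 of MRCKβ KO and 2 of cells with both genes targeted (DKO 1 and DKO 2, made with different guide sets). All 6 cultures were transduced with a lentiviral CRISPR vector and were subconfluent when lysed. Transduced cells were selected with puromycin or blasticidin, and the paper does not say which drug each culture received. The knockouts are transduced populations, and the labels do not say which guides belong to which DKO library.

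WNT ligands are secreted lipid-modified proteins that bind Frizzled receptors together with co-receptors. In the canonical branch, binding stops the destruction complex from degrading β-catenin, which then acts with TCF and LEF factors on target genes. AXIN2 and LEF1 are widely used readouts of that branch, and DKK1 is both a target and an inhibitor of it. Other ligands, WNT5A and WNT5B among them, mostly signal without β-catenin and affect cell polarity and movement. WNT7B is known for roles in lung, kidney and bone development and is expressed in a subset of breast cancers.

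Each library held between 10349898 and 10657857 expected counts, which are estimated reads per gene. A second unit, FPKM, divides reads by transcript length and library total and is used below wherever levels of different genes are set side by side. The transcripts of the targeted genes were not at 0 in the knockouts. CDC42BPA stood at 36.4 and 23.3 FPKM in vector 1 and vector 2, 29.4 in the MRCKα KO library, 34.9 in the MRCKβ KO library, and 28.3 and 26.1 in DKO 1 and DKO 2. CDC42BPB stood at 30.3 and 29.1 FPKM in the vector libraries. It was at 27.3 in MRCKα KO and 25.7 in MRCKβ KO, and at 23.4 and 23.5 in DKO. The RNA level of CDC42BPA therefore does not separate its knockouts from vector, while that of CDC42BPB was lower in all 4 knockout libraries, the MRCKα KO library included. These RNA levels do not read out the edits themselves. At the protein level, the paper reports very efficient deletion in its MDA-MB-231 knockouts by Western blot. It also reports a slight, significant rise of MRCKβ protein in MRCKα KO. The cells are labelled epithelial, and the keratin gene KRT8 was at 138 to 220 FPKM, but CDH1, which encodes the defining E-cadherin, was at 0.64 or less. VIM, a mesenchymal filament gene, was at 1532 FPKM or more, while of the 3 receptor genes that triple-negative cells lack, PGR was at 0.03 or less, ESR1 at 0.53 to 0.87 and ERBB2 at 13.2 to 16.2.

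The 10 genes spanned a wide range of levels. DKK1 was the most abundant, at 348 ± 52.1 FPKM (SD, n = 6 libraries), and ranked 157 among all genes. FZD2 followed at 29.7 ± 2.51. LEF1 at 7.74 ± 1.33, FZD7 at 7.55 ± 1.45 and WNT5B at 6.77 ± 1.31 lay within each other's ranges. WNT7B averaged 3.31 ± 1.19 FPKM and was below WNT5B in 6 of 6 libraries, although their ranges overlap. DKK3 at 1.55 ± 0.677 and AXIN2 at 1.46 ± 0.235 did not differ beyond their spread, and DKK3 was the higher of them in 4 of 6 libraries. WNT5A at 0.295 ± 0.0952 and WNT9A at 0.158 ± 0.0830 were low, with 12 to 27 and 3 to 9 counts per library.

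**Figure D1:**
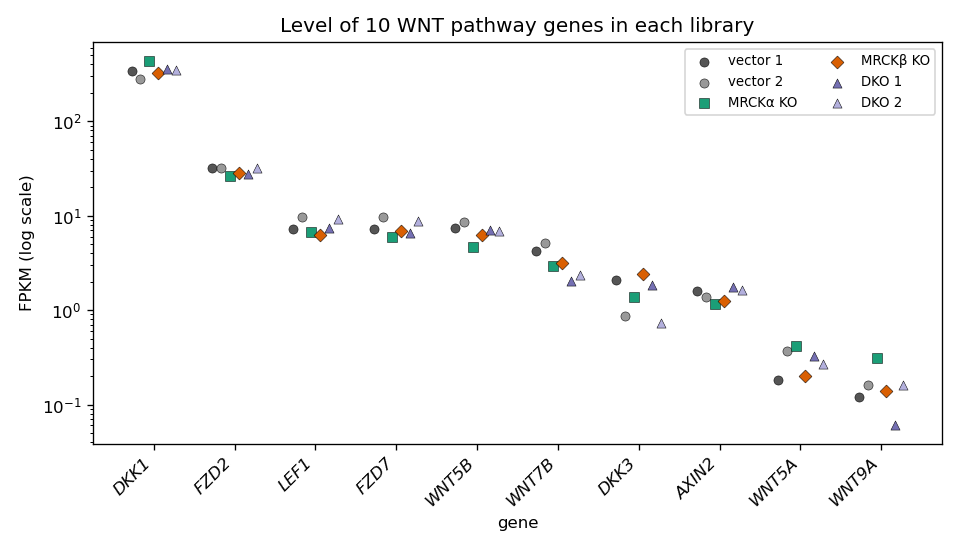
FPKM on a log axis for each of the 10 genes, with 1 point per library (grey circles vector, green square MRCKα KO, orange diamond MRCKβ KO, purple triangles DKO), genes ordered by their mean. DKK1 lies at 278 FPKM or more in every library, and the purple WNT7B points are the lowest of that gene.

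Among the ligands, WNT7B is the gene chosen for its lower DKO level. It was at 4.21 and 5.17 FPKM in vector 1 and vector 2, 2.90 in the MRCKα KO library, 3.19 in the MRCKβ KO library, and 2.04 and 2.33 in DKO 1 and DKO 2. Both DKO libraries were the lowest, both vector libraries the highest, and the single knockouts lay between them without overlap. In such bulk RNA, fewer cells with the transcript and less transcript per cell cannot be told apart. In expected counts the same order held, with 174 and 200 in the vector libraries, 114 in the MRCKα KO library, 129 in the MRCKβ KO library, and 79.7 and 91.6 in the DKO libraries. The fitted log2 fold change of DKO against vector was -1.14 (SE 0.22, 95% interval -1.67 to -0.61), a 2.20-fold lower level, and 75 of the 13123 genes tested had a lower fitted value. That contrast chose the gene and supports nothing by itself.

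The choice was stated on the DKO level of WNT7B, but earlier results of these libraries, single knockouts included, were known by then. The single knockouts are also set against the same vector controls. The choice rested on those vector levels, so the ratios below are not independent of it and may lean low. In MRCKα KO the log2 ratio of counts to both vector libraries was -0.71, with an exact 95% interval of -1.03 to -0.41. In MRCKβ KO it was -0.56, with an interval of -0.86 to -0.27. Against vector 1 alone, the lower of the controls, the ratios were -0.58 (-0.94 to -0.23) and -0.42 (-0.77 to -0.09). These intervals, like all intervals for single libraries here, describe counting error alone, and no molecular identifiers are described for the reads. A single knockout with 1 library allows neither a replicate check nor a test. The absolute difference of MRCKα KO from the mean of vector exceeded that of 93.6% of all genes tested, and that of MRCKβ KO exceeded 91.1%. For comparison, vector 2 and vector 1 differed by 0.26 (log2) in WNT7B, close to the median absolute difference of 0.24 over all genes tested. DKO 2 and DKO 1 differed by 0.18.

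**Figure D2:**
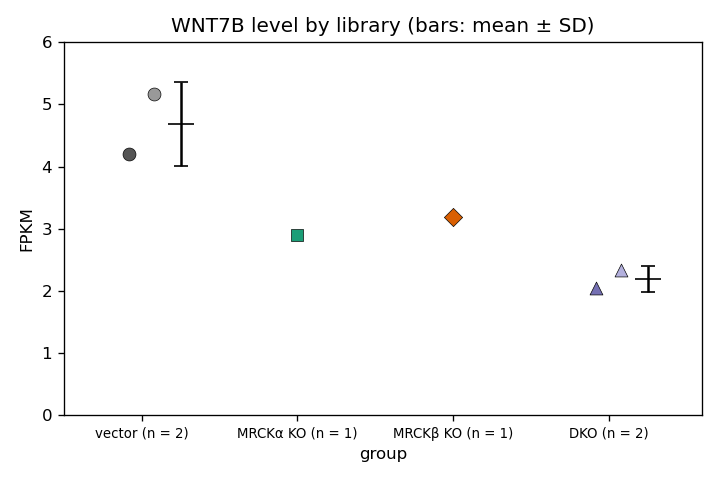
WNT7B level in FPKM by group, with 1 point per library and, for the groups of 2, the mean ± SD as a bar. Vector stands at 4.69 ± 0.679 and DKO at 2.19 ± 0.205, with MRCKα KO at 2.90 and MRCKβ KO at 3.19 between them.

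The other ligands were also examined. WNT5B, a ligand that mostly signals without β-catenin, was at 7.32 and 8.59 FPKM in the vector libraries, 4.64 in the MRCKα KO library, 6.17 in the MRCKβ KO library, and 7.06 and 6.85 in the DKO libraries. All 4 knockout libraries were below both vector libraries, and the lowest was MRCKα KO rather than DKO. In MRCKα KO the log2 ratio of counts was -0.79 (exact 95% interval -1.12 to -0.48, counting error only), beside -0.71 for WNT7B in the same library. In DKO the fitted log2 fold change was -0.21 (SE 0.19), with an adjusted p of 0.9996 in edgeR's quasi-likelihood test and an unadjusted p of 0.301. WNT5A, the related non-canonical ligand, had 12 and 24 counts in the vector libraries, 27 in the MRCKα KO library, 13 in the MRCKβ KO library, and 20 and 18 in the DKO libraries. Both DKO libraries lay between the vector libraries, and the fitted log2 fold change was 0.05 (SE 0.53, 95% interval -1.24 to 1.35).

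WNT9A, a ligand known from joint formation, had 6 and 7 counts in the vector libraries, 9 in the MRCKα KO library, 7 in the MRCKβ KO library, and 3 and 4 in the DKO libraries. It was too low for the filter and was not tested. Both DKO libraries were the lowest, but the exact 95% intervals of their log2 ratios to vector, -3.58 to 0.73 and -2.81 to 0.96, both include 0. In FPKM the order differed, and so did the transcript length that RSEM used. It was 4529 bases in vector 1 but 2807 in MRCKα KO and 2444 in DKO 2. MRCKα KO stood at 0.31 FPKM against 0.12 and 0.16 in vector, and DKO 2 at 0.16 was level with vector 2.

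The ligands of the pathway list summed to 18.3 and 17.3 FPKM in the vector libraries, 13.9 in the MRCKα KO library, 15.8 in the MRCKβ KO library, and 14.4 and 13.1 in the DKO libraries. The sum includes WNT7B, which was chosen for its lower DKO level, so it does not show a fall in the other ligands. WNT7B made up 23.0% and 29.9% of this sum in the vector libraries, 20.8% in the MRCKα KO library, 20.2% in the MRCKβ KO library, and 14.1% and 17.8% in the DKO libraries. WNT5B was the largest share in every library, from 33.3% in MRCKα KO to 52.2% in DKO 2. WNT3, a canonical ligand, was at 3.37 and 1.28 FPKM in vector and 2.50 and 2.18 in DKO. Every knockout library lay between the vector libraries. WNT10B, another canonical ligand, was at 1.59 and 0.16 FPKM in vector and 0.89 and 0.16 in DKO, and its libraries numbered 2 were the low ones in both groups.

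The receptors FZD2 and FZD7 belong to the Frizzled family of membrane receptors that bind WNT ligands. FZD2 was at 31.6 and 32.2 FPKM in the vector libraries, 26.4 in the MRCKα KO library, 28.6 in the MRCKβ KO library, and 27.5 and 31.9 in the DKO libraries. In FPKM DKO 2 lay between the vector libraries, whereas in normalized CPM, which are counts scaled to a common library total, it was at 121.4 and all 4 knockout libraries were below both vector libraries (122.4 and 125.9). The fitted difference in DKO was -0.12 (log2, SE 0.13), with an unadjusted p of 0.361 in edgeR's test. FZD7 was at 7.29 and 9.79 FPKM in the vector libraries, 6 in the MRCKα KO library, 6.92 in the MRCKβ KO library, and 6.53 and 8.79 in the DKO libraries. Both single knockouts and DKO 1 were below both vector libraries, while DKO 2 lay between them, and the fitted log2 fold change was -0.18 (SE 0.22). FZD6 was the other abundant Frizzled receptor, at 37.5 and 23.0 FPKM in vector and 37.7 and 26.1 in DKO.

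Among the antagonists, DKK1, a secreted inhibitor that binds the LRP5 and LRP6 co-receptors, made up 91.1% to 95.1% of the summed FPKM of the antagonist list. It was at 343 and 278 FPKM in the vector libraries, 438 in the MRCKα KO library, 325 in the MRCKβ KO library, and 354 and 352 in the DKO libraries. The highest level was in MRCKα KO, where the log2 ratio of counts to vector was 0.47 (exact 95% interval 0.43 to 0.52). Both DKO libraries were above both vector libraries, yet vector 1 and vector 2 themselves differed by 0.28 (log2). The fitted log2 fold change in DKO was 0.16 (SE 0.14, unadjusted p 0.280 and adjusted p 0.9996 in edgeR's test).

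DKK1 is shown with its promoter because it carried most of the antagonist signal and was the only one of the 5 genes with an entry in the RefSeq promoter table (WNT5A, WNT5B, WNT9A, DKK1, LEF1) that held a TCF/LEF core motif. The letters searched were CTTTGAT and CTTTGAA on both strands, in the 250 bases before the gene start. At least 1 of these motifs occurs in 5.94% of all 35116 promoters of that length in the table. The match describes the letters only. The stretch is on the plus strand of GRCh38.p14 at chr10:52314031-52314280, with the match in capitals.

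DKK1: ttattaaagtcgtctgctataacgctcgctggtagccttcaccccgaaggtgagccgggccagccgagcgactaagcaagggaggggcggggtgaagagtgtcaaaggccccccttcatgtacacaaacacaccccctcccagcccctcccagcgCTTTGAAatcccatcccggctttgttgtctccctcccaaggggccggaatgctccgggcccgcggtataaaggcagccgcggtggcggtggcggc

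DKK3, a relative of DKK1 whose part in WNT signalling is less settled, was at 2.09 and 0.86 FPKM in the vector libraries, 1.37 in the MRCKα KO library, 2.40 in the MRCKβ KO library, and 1.86 and 0.73 in the DKO libraries. In both groups of 2 the library numbered 2 was the lower one, by 1.26 and 1.36 on the log2 scale of counts, and the vector and DKO values interleaved. Several marker genes also differed between the libraries numbered 1 and 2. Over 13123 genes the deviations of same-numbered libraries correlated at 0.302. The share of all genes lower or higher in both libraries numbered 2 is not given here, so the marker counts have no background. Of the 7 epithelial markers, 4 were lower in both libraries numbered 2, and the list summed to 472 and 410 FPKM in vector and 419 and 319 in DKO. Of the 5 fibroblast and blood cell markers, 4 were lower there, with sums of 10.2 and 3.90 FPKM in vector and 6.21 and 4.04 in DKO. Of the 4 mesenchymal markers, 3 were higher there. KRT19, an epithelial keratin, was at 60.4 and 28.9 FPKM in vector and 48.1 and 21.5 in DKO, and PDGFRB, a growth factor receptor of mesenchymal cells, at 5.90 and 1.35 in vector and 3.15 and 1.14 in DKO. DCN and LUM, which define fibroblasts, are among the 4 lower markers of other cells and had at most 6 counts in any library. COL1A1, also a fibroblast marker of that list, was at 3.26 and 2.27 FPKM in vector but 2.34 and 2.56 in DKO. The part of these differences in DKK3 was not tested. The fitted change of DKK3 in DKO was -0.21 (log2) with an SE of 0.62.

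**Figure D3:**
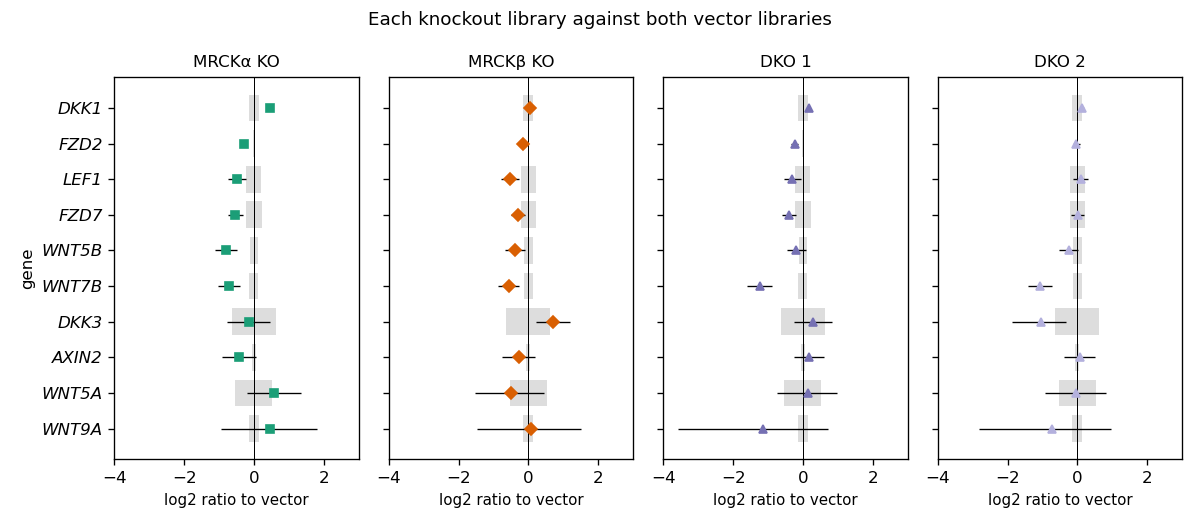
Log2 ratio of counts of each knockout library to both vector libraries together, 1 panel per library, with exact 95% intervals for counting error as lines. Grey bars, centred on 0, are as wide as the difference between vector 1 and vector 2. WNT7B, WNT5B and FZD2 lie left of their grey bars in all 4 panels, FZD2 only just in DKO 2, and DKK3 has the widest bar. The DKO panels hold the values on which WNT7B was chosen.

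The feedback targets read out the canonical branch. AXIN2, a scaffold of the destruction complex, was at 1.60 and 1.38 FPKM in the vector libraries, 1.15 in the MRCKα KO library, 1.25 in the MRCKβ KO library, and 1.74 and 1.64 in the DKO libraries. Both single knockouts were below vector and both DKO libraries above it. With 48 to 73 counts per library, the intervals of the single knockouts included 0, and the DKO difference of 0.13 (log2, SE 0.28) had an unadjusted p of 0.648 in edgeR's test. LEF1, a transcription factor that partners β-catenin, was at 7.21 and 9.59 FPKM in the vector libraries, 6.73 in the MRCKα KO library, 6.31 in the MRCKβ KO library, and 7.48 and 9.14 in the DKO libraries. Its DKO libraries lay within the range of vector in FPKM, while in CPM DKO 1 (19.4) was just below vector 1 (20.4). The single knockouts were lower, with log2 ratios of counts of -0.49 (exact 95% interval -0.74 to -0.24) and -0.53 (-0.79 to -0.28), although against vector 1 alone the MRCKα KO interval of -0.55 to 0.03 included 0. For LEF1 RSEM used lengths of 2550 and 2606 bases in MRCKα KO and MRCKβ KO, against 2818 and 2823 in vector. In FPKM their log2 ratios were smaller, at -0.32 and -0.41, and against vector 1 alone -0.099 and -0.19. In DKO the fitted change was -0.08 (SE 0.22).

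Counted together, 9 of the 10 genes passed the filter of edgeR's test. Leaving out WNT7B, 0 of the other 8 had an unadjusted p under 0.05, against 2.39% of all genes tested. No gene of the table was called at an adjusted p under 0.05 (0% of 13123, with 313 at an unadjusted p under 0.05, and 4 of 16663 called by DESeq2). In CPM, both DKO libraries were below both vector libraries for 3 of the 9 genes (WNT5B, WNT7B and FZD2), where 14.9% of all genes tested did so, and above them for 2 (DKK1 and AXIN2), against 14.1%. The same 3 genes were below both vector libraries in all 4 knockout libraries, against 6% of all genes. WNT7B is among these 3 by choice, and the same vector libraries enter every one of these comparisons, so the counts are not independent. The sign of the DKO value of WNT5A, DKK3, LEF1 and FZD7 turned when single libraries were left out.

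The rule of the study's methods, which drops genes over 2-fold apart between replicates and asks for a log2 ratio of FPKM of at least 1 or at most -1, was applied as well. In DKO it took WNT7B alone of the 7 genes with a ratio, at -1.10, against 1.76% of all genes with a ratio. Against vector 1 alone that ratio was -0.95 and WNT7B missed the rule. WNT7B was chosen on this difference, so its place here supports nothing by itself. WNT5A, DKK3 and WNT9A had no ratio in DKO because their replicates were too far apart. In MRCKα KO it took, of 8 genes with a ratio, WNT9A alone, at 1.15 on 9 counts, against 4.38% of all genes, and on normalized counts it took none. In MRCKβ KO it took none of 8, against 3.5%.

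Of the 104 genes of a wider WNT pathway list found in the table, 79 were tested in DKO. Their median log2 fold change was -0.02, beside -0.002 over all genes tested. Of the 79, 44 were lower and 35 higher, where 50.7% of all genes tested were lower. Apart from WNT7B, 1 of 78 (1.28%) had an unadjusted p under 0.05, against 2.39% of all genes tested, and with DESeq2 0 did. This was ROR1, a WNT5A receptor, at 8.29 and 7.08 FPKM in vector and 6.75 and 6.08 in DKO. Its log2 fold change in counts was -0.47 (SE 0.19), with an adjusted p of 0.9996 in edgeR's test. In FPKM the difference was smaller than in counts (443 and 367 in vector, 335 and 256 in DKO). The transcript length that RSEM used was 4976 and 4964 bases in vector but 4709 and 3985 in DKO.

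By role, the secretion factors did not pass the test. WLS, which carries ligands to the surface, was at -0.18 (log2, SE 0.12) and PORCN, which attaches their lipid, at -0.30 (SE 0.22). All 7 co-receptors tested had values below 0, where 50.7% of all genes tested did. Their median was -0.14, and the most abundant, PTK7 and RYK, were at -0.01 and -0.02. Of 8 Frizzled receptors 5 were higher and 3 lower, with a median of 0.03, the lowest being FZD1 at -0.27 (SE 0.17). The 17 cytoplasmic genes, which hold the destruction complex, had 13 higher and 4 lower, with a median of 0.13. Whether these counts of signs differ from the share over all genes was not tested. CTNNB1, which encodes β-catenin, was at 92.5 and 109 FPKM in vector and 98.4 and 113 in DKO, and TNKS, a tankyrase that targets axin for degradation, at 0.22 (SE 0.13).

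The 4 tested genes of R-spondin signalling and receptor turnover had a median of -0.10. ZNRF3, a ligase that removes Frizzled receptors, was at 0.29 (log2, SE 0.27), and LGR4, an R-spondin receptor, at -0.08 (SE 0.16). The 14 nuclear factors split evenly at 7 and 7, with TLE2, a corepressor, at 0.77 (SE 0.47). Of the 12 feedback targets 5 were higher and 7 lower. CCND1, which encodes cyclin D1, was at 230 and 211 FPKM in the vector libraries, 188 in the MRCKα KO library, 213 in the MRCKβ KO library, and 186 and 210 in the DKO libraries, and APCDD1, a surface inhibitor, at 0.62 (SE 0.47). The 11 planar cell polarity genes had a median of -0.09. In no list did a gene pass the adjusted threshold.

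**Figure D4:**
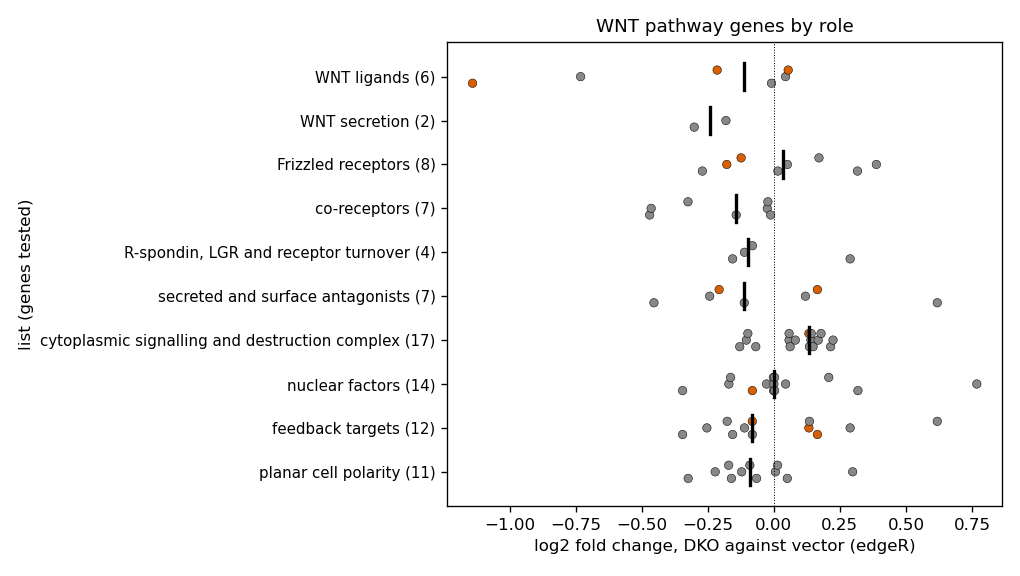
Log2 fold change of DKO against vector from edgeR for the tested genes of each pathway list, 1 point per gene, with the 10 genes described here in orange (where tested) and a black bar at the median of each list. The WNT7B point at -1.14 lies furthest from 0, and the medians lie between -0.24 and 0.13.

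Under the 2-fold rule the wider list gave 2 of 71 genes with a ratio in DKO, against 1.76% of all genes. They were AMER3 and WNT7B, both lower, and WNT7B is among them by choice. In MRCKα KO the list gave 2 of 76 (AMER3 lower and WNT9A higher), against 4.38%. In MRCKβ KO the list gave 2 of 74 (RNF43 and WNT11, both lower), against 3.5%. Apart from WNT7B, these genes had at most 18.2 counts in any library. AMER3, of the APC-binding AMER family, had 13.6 and 8.53 counts in vector and 3.30 and 2.88 in DKO. RNF43, the partner ligase of ZNRF3, had 18.2 and 13.8 counts in vector, 3.37 in MRCKβ KO, and 17.1 and 11.8 in DKO.

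The genes whose pattern was most like that of WNT7B over the 6 libraries were VPS45 (Pearson's r of log2 CPM 0.987), MICAL1 (0.980), ASCC3 (0.978), TM7SF3 (0.976) and POLR2G (0.969), out of 11054 genes with at least 50 counts on average. With 6 points, 65 genes (0.588%) reached 0.9 or more and 76 (0.688%) reached -0.9 or less. The points include the vector and DKO libraries on which WNT7B was chosen, so a high r partly restates that difference. MICAL1, an actin-oxidizing enzyme, was at 4.67 and 5.32 FPKM in vector and 3.81 and 4.12 in DKO. Of the other 9 genes, 6 had enough counts to be ranked. FZD2 ranked 1154 with r = 0.596, FZD7 1825, WNT5B 2134, LEF1 3244, AXIN2 7380 and DKK1 9511 with r = -0.523.

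WNT7B is on chromosome 22, minus strand, at 45920362 to 45977129 (GRCh38, GENCODE v29), with 5 annotated transcripts, all protein-coding, and no gene overlapping it. Within 500 kb, 11 other genes are in the table. The nearest 2 are PRR34, with at most 0.16 FPKM, and ATXN10, 75.1 kb away, which was at 36.8 and 29.5 FPKM in vector and 35.4 and 32.5 in DKO. RIBC2, 487.9 kb away, had the lowest fold change of the 9 that were tested, at -0.92 (log2, SE 0.40). These neighbours were named after their values were seen. WNT9A and CDC42BPA lie on chromosome 1, 600.2 kb apart.

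Reads of 50 bases tell most of these genes from others. Of the distinct 50-base stretches of WNT7B transcripts, 1.78% also occur in transcripts of another gene. For WNT5A, WNT5B, WNT9A and DKK3 none do. FZD2 shares 2.67% of its stretches, mostly with FZD1, and FZD7 shares 0.52% with FZD2. AXIN2 shares 24.1%, all with an overlapping protein-coding gene model of the same strand, and DKK1 and LEF1 share 7.58% and 4.10% with antisense genes. Whether the libraries kept strand is not given in the sources used here, so reads of DKK1 and LEF1 in these stretches may belong to the antisense genes.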

How the data were processed

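RNA of 6 MDA-MB-231 cultures was sequenced by BGI as single-end reads of 50 bases. The submitters' processing notes name HISAT, Bowtie2 and RSEM, without versions, and the build GRCh38.p11. The authors deposited expected counts per gene, estimated by RSEM and not normalized, and FPKM values, which divide them by transcript length and library total. Groups follow the sample titles. Expected counts were rounded, filtered by filterByExpr, normalized by TMM and tested with edgeR 4.0.16 (quasi-likelihood test, Benjamini-Hochberg adjustment over all 13123 genes, threshold 0.05) for DKO against vector, without a replicate block. The libraries come from separate transductions or guide sets. Each single knockout has 1 library and no p-value. Its ratios to vector use TMM-scaled counts with exact 95% intervals. A count of 0 allows up to 3 counts.

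Alternatives were DESeq2 1.42.0, limma 3.58.1 applied to log2 FPKM with a pseudocount of 0.1 or 1 (mean FPKM 0.5 or more), other normalizations and filters, a replicate block, all 6 libraries and each replicate left out. The scripts were tested on simulated data. The members, lists and tests were chosen with earlier results of these data known. Named pathway genes are, per role list, the 2 with the highest FPKM, the one with the lowest p and those past the 2-fold rule with at least 10 counts. Not every one is named. WNT11 was named after its values were seen. Positions and transcripts are from GENCODE v29, promoters from RefSeq.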

Additional observations from a re-analysis of the deposited data

How the results depend on the processing

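The log2 ratio of WNT7B in DKO stayed below 0 under all 13 alternatives. WNT7B was chosen on this difference, so its sign was set by the choice and only its size is described here. It ranged from -1.26 (without vector 1) to -1.01 (without vector 2) when a library was left out, and was -0.83 with limma on log2(FPKM + 1), where the larger pseudocount shrinks ratios of low values. The genes called over the whole table, 0 in edgeR's test, were 4 with DESeq2, 5 with a replicate block, and 0 to 5 with a library left out (1 without vector 1, 5 without DKO 1); no gene of the pathway list was among them. Pathway genes at an unadjusted p under 0.05, WNT7B included, were 2, against 1 with DESeq2 and with either limma setting, and 1 to 7 with a library left out, 7 without vector 1, 4 without vector 2 and 1 without DKO 2. The share of all genes tested moved with them, from 2.39% to 8.60%, 5.96% and 1.00% in these 3 settings. WNT7B was chosen on this contrast, so its place in these counts supports nothing by itself. Without WNT7B, 1 of 78 pathway genes was under 0.05 in edgeR's test and 0 with DESeq2. The cause of the shifts between settings was not tested.

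With a library left out, the log2 value of WNT5A ranged from -0.38 to 0.66 (below 0 without vector 1 or DKO 1, the latter -0.04), that of DKK3 from -1.04 to 0.57 (above 0 without vector 1 or DKO 2, the latter 0.31), that of LEF1 from -0.30 to 0.14 (above 0 without vector 2 or DKO 1, the latter 0.10) and that of FZD7 from -0.40 to 0.054 (above 0 without vector 2 or DKO 1, the latter 0.011). WNT5A has no limma value at its mean FPKM, and WNT9A was tested in few settings. WNT5B, DKK1, AXIN2 and FZD2 kept their sign and did not pass the threshold under these alternatives, but their size moved. With a library left out, DKK1 ranged from 0.025 (without vector 2) to 0.32 (without vector 1), FZD2 from -0.23 (without DKO 2) to -0.028 (without DKO 1), WNT5B from -0.33 (without vector 1) to -0.091 (without vector 2) and AXIN2 from 0.068 (without vector 2) to 0.20 (without vector 1).

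Members past the 2-fold rule in DKO, 1 in the values above, were 0 with FPKM + 1 and 0 to 2 with a library left out. In MRCKα KO, 1 became 0 with FPKM + 0.1, FPKM + 1, a mean FPKM of at least 1 or normalized CPM, and 0 to 2 with a vector library left out (WNT5A and WNT9A without vector 2). In MRCKβ KO, 0 became 1 (DKK3) without vector 1, so 0 to 1 in all. The share of all genes past the rule rose too when a library was left out, to between 3.83% and 5.24% in DKO, to 9.92% and 10.7% in MRCKα KO, and to 8.18% and 11.1% in MRCKβ KO (11.1% without vector 1).

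Vector and DKO share the replicate numbers 1 and 2, which the labels tie to nothing common. Over 13123 genes the deviations of same-numbered libraries correlated at 0.302, with 2 pairs only. With the replicate block the WNT7B ratio was -1.14 (SE 0.20), the calls over the whole table were 5 in place of 0, and no gene described here, WNT7B included, was among them. Depth limits WNT5A and WNT9A most, with at most 27 and 9 counts in a library.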
